A study of Mus musculus with 14 samples.

Results

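A group of 24 predicted mouse genes with Gm symbols was close to silent in early 2-cell embryos and clearly expressed in late 2-cell embryos. Gm symbols are given to gene models that have no functional name yet, and many are pseudogenes or long non-coding RNAs (lncRNAs). The genes were chosen as those with at most 10 counts in each early 2-cell library and at least 10 CPM (each count scaled by the total of its library) in each of 4 late 2-cell libraries, the lactate-fed (G&N) ones and those labelled WT. Of 27726 Gm genes among 56923 genes in the table, 24 met the rule, and 54 genes with other names met the same levels. The levels in the early, G&N and WT libraries therefore chose these genes and are given as a description.

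The study asked whether lactate is needed for the major wave of zygotic genome activation in ICR mouse embryos. It holds 14 libraries, 2 in each of 7 groups, each made from 5 pooled embryos per the labels. Early embryos (30 h after hCG) and late embryos (54 h) of the G&N groups were cultured from 24 h in medium with 10 mM lactate, 5 µM Gne140 (an inhibitor of lactate dehydrogenase) and 50 µM NMN (a precursor of NAD+), and the G&N-L groups in the same medium without lactate. A further late group, G&N-L + Lac-CoA, had 1 mM lactyl-CoA injected at the zygote stage before lactate-free culture. The last late groups are labelled WT and H3K18R. The methods describe injected mRNA of wild-type histone H3 or of H3 with lysine 18 changed to arginine, a change that removes the site of H3K18 lactylation, while the label of the former says WT alone. By their titles and the methods all G&N groups carry Gne140 and NMN, although the treatment label of early G&N names Gne140 alone and that of early G&N-L does not name the lack of lactate. No source used here gives these agents for the WT and H3K18R groups. The sources state 3 replicates per group and the counts hold 2, and nothing says whether these are separate collections, so p-values measure only the spread between these libraries.

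At fertilisation the mouse genome is transcriptionally quiet and the embryo lives on RNA stored in the oocyte. A minor wave of transcription begins in the zygote, and the major wave takes place in the 2-cell embryo, when stored RNA is also cleared. Many genes switched on at this time are young, repeated or derived from retroelements, and long terminal repeats of the MERVL family are known to serve as promoters and first exons of 2-cell transcripts.

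In the GENCODE M39 annotation of GRCm39, the build the authors used, 11 of the 24 genes were pseudogenes, 10 were lncRNAs, 2 were unclassified models awaiting experimental support, and 1, Gm12789, was protein coding and carried the name Prame62, of the PRAME-like family. Pseudogenes made up 45.8% of the group and 42.8% of all Gm genes, and lncRNAs 41.7% against 26.2%. Among the 54 other genes with the same levels, 87.0% were protein coding. For 15 of the 24 genes another gene lay on the same bases, and for 6 an exon fell on an exon of that gene, on the opposite strand in 3. No source says that strand was used in counting, so reads of the opposite-strand pairs cannot be told apart. The same-strand partners of Gm12617, Gm12625 and Gm12622 are not among the counted genes, so their reads cannot be set apart either.

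The 3 most abundant members lie in a tandem array, and the likeness of its copies sets how well each can be counted. The array lies on the minus strand of GRCm39 chromosome 11, between bases 60451750 and 60583901, and holds 12 copies in the table, of which 5, Gm12617, Gm12625, Gm12622, Gm12621 and Gm12628, met the rule. Over the whole transcript of 382 bases, Gm12621 was identical to Gm12625 at 99.2% of bases, Gm12622 at 98.4% and Gm12628 at 96.3%, while Gm12617 reached 85.4%. The starts of neighbouring copies were 9206 to 20098 bases apart. The 300 bases around the start of Gm12625 and Gm12621 were identical, those of Gm12628 were 91.4% identical to both, and those of Gm12622 and Gm12617 stood at 61.0% to 62.8%. How the counting treated reads that match several copies is not given in the sources used here, so the split of reads among these copies is uncertain.

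A set of 4 members, the lncRNAs Gm44693, Gm29290, Gm12823 and Gm16239, lie on 4 different chromosomes and share 49 bases of their first exon, shown in capitals. The exons are at chr8:5490925-5490990 on the minus strand, chr1:153814972-153815032 and chr4:112780893-112780984 on the plus strand, and chr10:99020352-99020472 on the minus strand, in the same order.
Gm44693: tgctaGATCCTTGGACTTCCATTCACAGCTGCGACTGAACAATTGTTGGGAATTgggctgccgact
Gm29290: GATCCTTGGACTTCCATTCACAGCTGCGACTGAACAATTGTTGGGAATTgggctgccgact
Gm12823: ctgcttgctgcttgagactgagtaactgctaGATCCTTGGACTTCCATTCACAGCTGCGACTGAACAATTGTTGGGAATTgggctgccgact
Gm16239: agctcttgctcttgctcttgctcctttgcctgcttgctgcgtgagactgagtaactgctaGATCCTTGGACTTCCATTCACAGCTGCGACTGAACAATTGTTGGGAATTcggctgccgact

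The stretch was defined as the longest run common to these 4 members, so their share was set by that choice and is a description. It was held by 4 of the 24 members (16.7%) and by 69 of 78289 annotated genes (0.0881%), in 49 of them within the first 100 bases. None of the 54 other genes with the same levels held it, but it was not particular to the members. Of the genes holding it, 55 are in the count table. Among non-members, 2310040G24Rik had at most 0.685 CPM early and 48.9 to 229 late. Gm21761 had at most 1.69 early and 41.8 to 254 late. Clec10a went the other way, with up to 82.9 CPM early and 3.24 to 31.8 late. No repeat annotation was used here, so the stretch is given without a repeat name. A further member, the lncRNA Gm38407, did not hold the exact stretch but had sequence like 3 of these lncRNAs. It matched Gm12823 at 93.5% over 93 bases, Gm16239 at 94.6% over 112 and Gm44693 at 95.7% over 69.

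Several remaining members resembled protein-coding genes. Gm5543 was 97.0% identical to Tdpoz5, a BTB-domain gene, over 1023 bases. Gm11843 matched Ube2v2, a ubiquitin-conjugating enzyme variant, at 95.4%, Gm5745 matched the ribosomal protein gene Rpl36 at 95.3%, and Gm48106 matched Gapdhrt2, a retrotransposed copy of the glycolytic gene Gapdh, at 87.4%. In all, 12 of the 24 had another gene at 95% identity or more over at least 50% of their length. The lncRNA Gm48306 had none. The sequence around its start, from 250 bases before to 50 after at chr10:87816074-87816373 on the plus strand, is shown because this gene had the largest fitted fall of the 24 without lactate, with matches to the searched motifs in capitals.
Gm48306: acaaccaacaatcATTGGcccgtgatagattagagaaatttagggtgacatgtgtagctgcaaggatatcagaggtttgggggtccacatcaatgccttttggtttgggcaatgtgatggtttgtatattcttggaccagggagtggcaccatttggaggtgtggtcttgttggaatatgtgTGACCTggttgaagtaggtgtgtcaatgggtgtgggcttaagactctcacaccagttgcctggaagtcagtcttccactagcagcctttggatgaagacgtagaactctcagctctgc

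These capitals are a reverse match to CCAAT and one to AGGTCA. The same window was searched on both strands in every gene for 5 motifs. CCAAT was in 62.5% of the 24 windows, 38.5% of the windows of 56197 genes and 46.3% of those of the 54 other genes. GGATTA was in 25.0%, 9.67% and 27.8%, and AGGTCA in 25.0%, 16.3% and 18.5%. TATAAA was in 16.7%, 17.5% and 13.0%, and GGGCGG in 4.17%, 19.7% and 42.6%. The windows of the array copies Gm12625, Gm12621 and Gm12628 are alike and are not independent in these shares. The members with GGATTA include Gm44693, Gm29290, Gm12823 and Gm16239, which share the first-exon stretch and may not be independent either.

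Library totals ran from 20350427 to 61275465 counts, so that 3 counts corresponded to 0.0490 to 0.147 CPM. All 7 late 2-cell markers and all 11 oocyte markers were detected in late libraries, and cumulus cell markers summed to 7.63 to 29.6 CPM with 2 of 10 at 0. Of the late 2-cell markers, Tcstv1 was already at 309 to 527 CPM early. The late 2-cell markers summed to 432 to 676 CPM in early libraries. In late libraries the sum was 2117 and 2038 in G&N, 2599 and 2986 in G&N-L, and 3532 and 3774 with Lac-CoA. It was 1450 and 1044 in WT and 1624 and 1716 in H3K18R, an order of groups unlike that of the 24 genes. The summed level of oocyte genes stood at 18524 to 21882 CPM in early libraries, 14059 and 14600 in late G&N, 18302 and 20442 in late G&N-L, 15887 and 11151 with Lac-CoA, 3690 and 3721 in WT, and 4061 and 8768 in H3K18R. It thus moved with several group differences below, and its part in them was not tested. Btg4 was the largest part of the early sum, at 12259 to 14227 CPM early and 1319 to 12623 late. The listed genes did not all move alike, as Zp3 was at 25.6 to 54.2 CPM early and 40.8 to 159 late. Mitochondrial genes took 5.65% to 6.84% of counts in the late G&N-type libraries and 10.6% to 12.2% in WT and H3K18R. Counts of H3c1, which encodes H3.1, were 43643 and 83390 in H3K18R, 4 and 3 in the libraries labelled WT, and 6 and 2 in late G&N, which had no H3 injection. H3c1 thus shows no injected H3.1 mRNA in the libraries labelled WT. Genes of the other H3 types that the methods inject were not checked here. Whether the WT embryos were injected is therefore open, and in H3K18R against WT the mutation and the injection itself cannot be told apart.

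The 24 genes together rose from a summed level of 0.432 to 0.767 CPM in the 4 early libraries to 892 to 2982 CPM in the late ones, a contrast the rule fixed. The late sum was 1455 and 1550 CPM in G&N, 1314 and 892 in G&N-L, 1734 and 1922 with Lac-CoA, 2593 and 2982 in WT, and 2740 and 1671 in H3K18R. The sums without lactate were under those of either G&N library, and the sums with Lac-CoA were over them. The G&N libraries helped to choose the genes, so nothing is read from these differences. In bulk samples, fewer embryos reaching a stage and less RNA per embryo cannot be told apart.

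**Figure D1:**
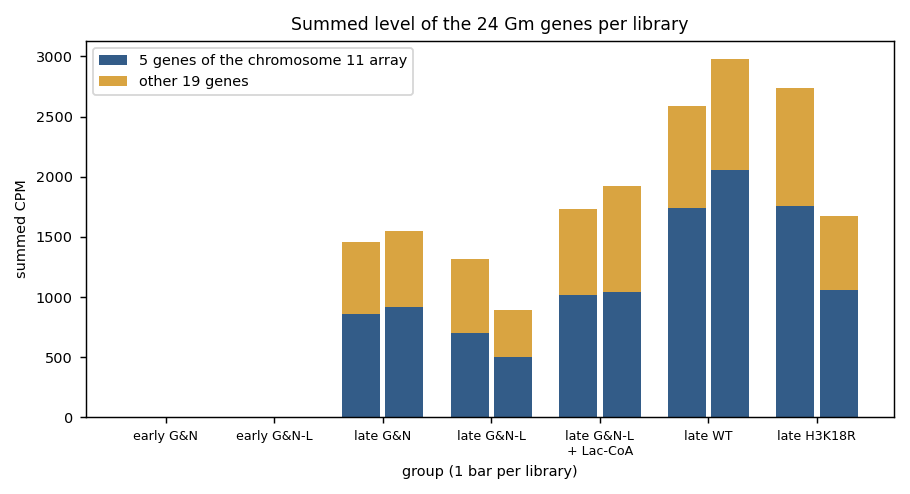
Summed CPM of the 24 genes (vertical axis) in each library, with 1 bar per library and groups on the horizontal axis, split into the 5 array genes and the other 19. Early bars are too low to see, and G&N-L replicate 2 is the lowest late library at 892 CPM.

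The highest member was Gm12617, with at most 2 counts in any early library. It stood at 304 and 461 CPM in G&N, 270 and 187 in G&N-L, 482 and 466 with Lac-CoA, 953 and 1020.3 in WT, and 887 and 515 in H3K18R. The WT libraries were the highest and the lactate-free ones the lowest, with no overlap between G&N and G&N-L, but WT and G&N were used by the rule. Gm12625 stood at 213 and 233 CPM in G&N, 254 and 132 in G&N-L, 282 and 331 with Lac-CoA, 428 and 600.4 in WT, and 489 and 252 in H3K18R. Its levels with and without lactate overlapped. Gm12621 varied within groups, at 144 and 24.3 CPM in G&N and 24.9 and 91.4 in G&N-L, although its transcript is 99.2% identical to that of Gm12625.

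**Figure D2:**
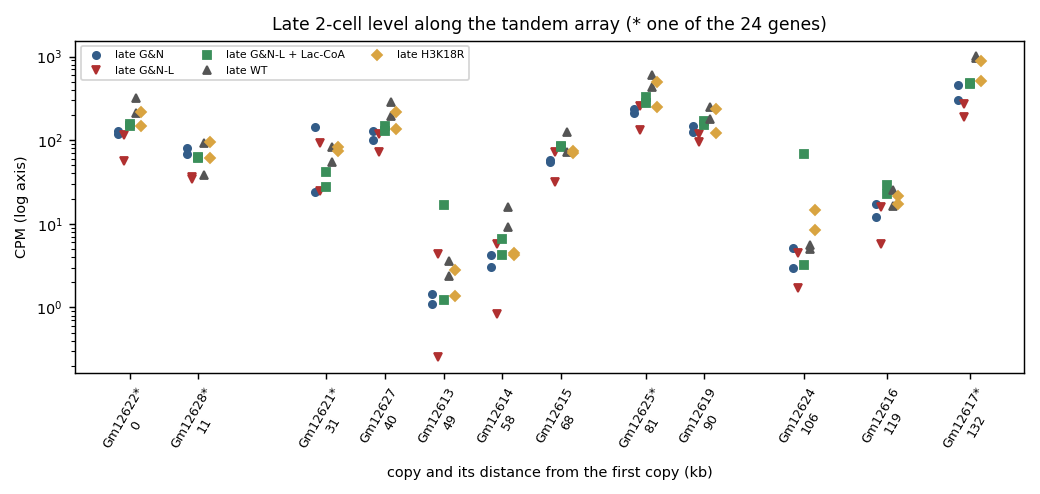
Late 2-cell CPM (log axis) of the 12 array copies, ordered by distance in kb from the first copy, with 1 point per library and asterisks on the 5 genes that met the rule. Gm12617 is highest at 187 to 1020.3 CPM, and near-identical copies span a wide range of levels.

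The 7 array copies outside the group were 98.7% to 99.5% identical to Gm12625. Of these, 4 had more than 10 counts in an early library, and the other 3 were under 10 CPM in a late library of the rule. Gm12624, one of the latter, reached 68.9 CPM in Lac-CoA replicate 1 and 3.26 in replicate 2.

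**Figure D3:**
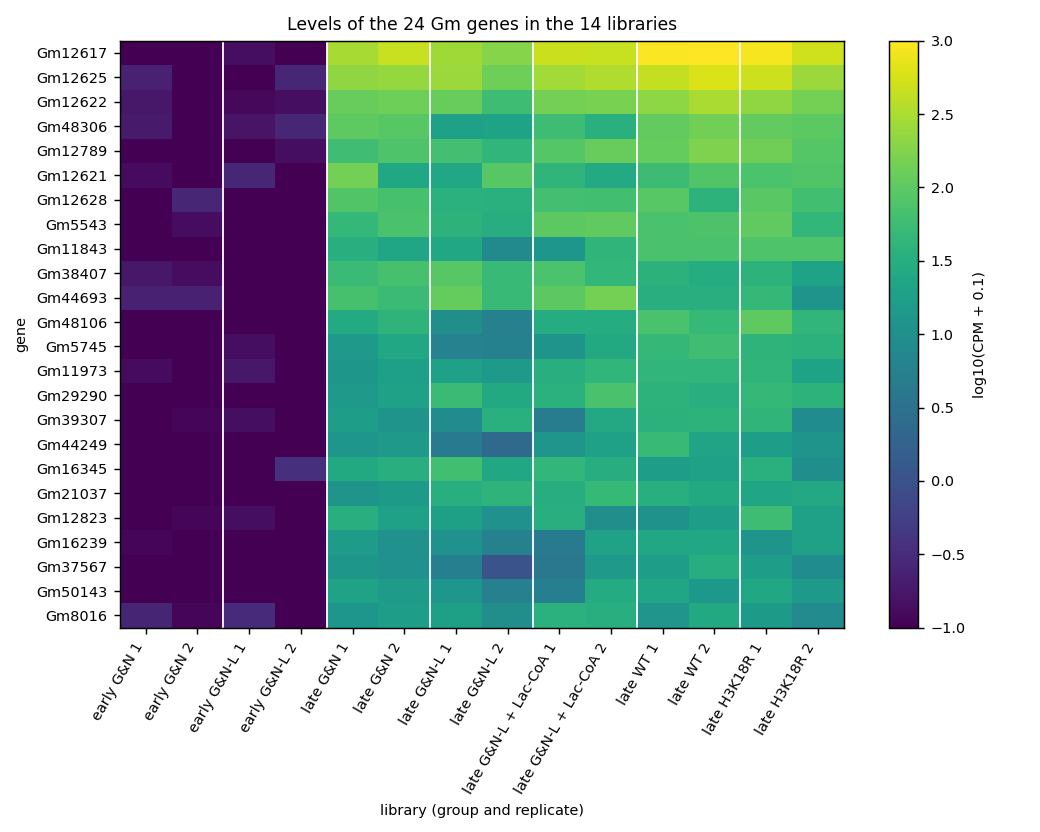
Level of each of the 24 genes (rows, ordered by mean CPM in the rule's libraries) in the 14 libraries (columns), as log10(CPM + 0.1). The early columns are dark throughout because the rule chose genes at 10 counts or fewer there. The rule also held late G&N and WT at 10 CPM or more. Among the remaining late groups, only G&N-L had genes (4 of 24) under 10 CPM in both libraries.

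In the libraries the rule did not use, the level of 10 CPM was kept in both replicates by 15 of the 24 genes in G&N-L, 19 with Lac-CoA and 20 in H3K18R. Of the 54 other genes, 26, 43 and 51 did so. Both lists were chosen at this level in G&N and WT, so some loss in other libraries can follow from the choice alone.

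Lactate removal was examined in late embryos as G&N-L against G&N. The fitted median change of the 24 genes was -0.65 on the log2 scale, with 17 below 0 (51.0% over all genes), where the median over all 19481 genes tested was -0.02. Under the criterion used here, a log2 fold change larger than 0.5 either way and an unadjusted edgeR quasi-likelihood p under 0.05, 5 genes were lower and 2 higher, and over all genes tested 7.63% were lower and 4.23% higher. For 12 genes each lactate-free value was under each G&N value (22.7% over all genes), and for 2 genes it was over (21.0%). The 5 lower genes became 10 when the first G&N-L library was left out and 3 when G&N replicate 2 was, and the 2 higher became 1 without G&N replicate 1. The G&N libraries helped to choose the members, so nothing is read from these counts and no p is given per gene. When Gm genes were chosen on the early and WT libraries alone, 56 of 57 could be tested, the median was -0.55, and 8 were lower and 2 higher. No gene in the table passed an adjusted p of 0.05 by edgeR in this comparison, while DESeq2 called 4 of the 24 members and 4.70% of all genes.

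Gm48306 stood at 101 and 91.8 CPM in G&N and at 19.2 and 20.6 in G&N-L, a fitted change of -2.30 ± 0.25 (SE, log2). Gm48106, the Gapdh-like pseudogene, stood at 28.2 and 39.9 CPM against 9.39 and 5.47, a change of -2.23 ± 0.47. In both genes each lactate-free value was under each G&N value, and the G&N libraries helped to choose the genes of this paragraph. Gm44249, at -1.98 ± 0.59, was at 12.7 and 13.8 CPM against 4.55 and 2.33, and its exon falls on an exon of Nr2c2, a nuclear receptor gene on the other strand. The ribosomal pseudogene Gm5745 changed by -1.77 ± 0.51 and the array copy Gm12628 by -1.11 ± 0.25. Against this direction, Gm21037, a pseudogene like Rbbp6, stood at 11.6 and 14.8 CPM in G&N and 32.0 and 39.5 without lactate, a change of 1.41 ± 0.37. Gm29290 changed by 1.21 ± 0.46. The 4 lncRNAs with the shared first-exon stretch did not move one way, with 0.41 for Gm44693, 1.21 for Gm29290, -0.88 for Gm12823 and -0.75 for Gm16239.

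Among 35 genes of the 2-cell programme listed for comparison, 34 were tested, 12 were lower and 2 higher without lactate, and their median was -0.28. The 54 other genes with the same levels had a median of -1.11, with 22 lower and 1 higher. Over all 4057 Gm genes tested the median was 0.12, with 174 lower and 200 higher.

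Lac-CoA injection was compared with lactate-free culture alone, and this contrast used no late library of the rule. No source used here gives an injection for the G&N-L or G&N groups. Lac-CoA and the injection itself thus cannot be told apart, here or against G&N. Of the 24 genes, 10 were higher and 0 lower under the criterion, where 6.89% of all 19610 genes tested were higher and 6.29% lower. The median was 0.70, with 4 below 0 (50.4% over all genes), and -0.01 over all genes. Both Lac-CoA libraries lay above both lactate-free ones for 12 genes (26.4% over all genes) and below them for 0 (20.3%). No member passed an adjusted edgeR p of 0.05, 10 had an unadjusted p under 0.05, and DESeq2 called 3 after adjustment, with 6.03% of all genes. The count of 10 fell to 4 without Lac-CoA replicate 2 and to 3 without G&N-L replicate 2, while leaving out the first G&N-L library gave a median of 1.15. The summed level of oocyte genes was lower in both Lac-CoA libraries than in both lactate-free ones, as given above, and its part was not tested.

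Gm5543, the Tdpoz5-like pseudogene, stood at 38.99 and 30.9 CPM in G&N-L and 99.6 and 105 with Lac-CoA, a log2 change of 1.44 ± 0.24 (edgeR unadjusted p = 0.00159, adjusted p = 0.294). Gm48106 went from 9.39 and 5.47 to 29.6 and 29.3 CPM, a change of 1.88 ± 0.45 (edgeR unadjusted p = 0.00778, adjusted p = 0.294). These groups did not overlap for either gene. Gm12617 changed by 0.94 ± 0.23 (edgeR unadjusted p = 0.00829, adjusted p = 0.294), and with Gm5543 and Gm48106 it made up the 3 genes that DESeq2 called. The other 7 past the criterion were Gm44249 (2.10), Gm5745 (1.62), Gm8016 (1.17), Gm48306 (1.11), Gm11973 (1.05), Gm12789 (0.85) and Gm12628 (0.70). Gm11973 is an lncRNA with an exon on an exon of Purb, a nucleic acid binding protein gene on the other strand, and Purb itself went from 0.0833 to 1.45 CPM early to 17.5 to 103 CPM late. Gm21037, with 32.0 and 39.5 CPM in G&N-L, had 31.1 and 46.9 with Lac-CoA, a change of 0.01 ± 0.33.

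**Figure D4:**
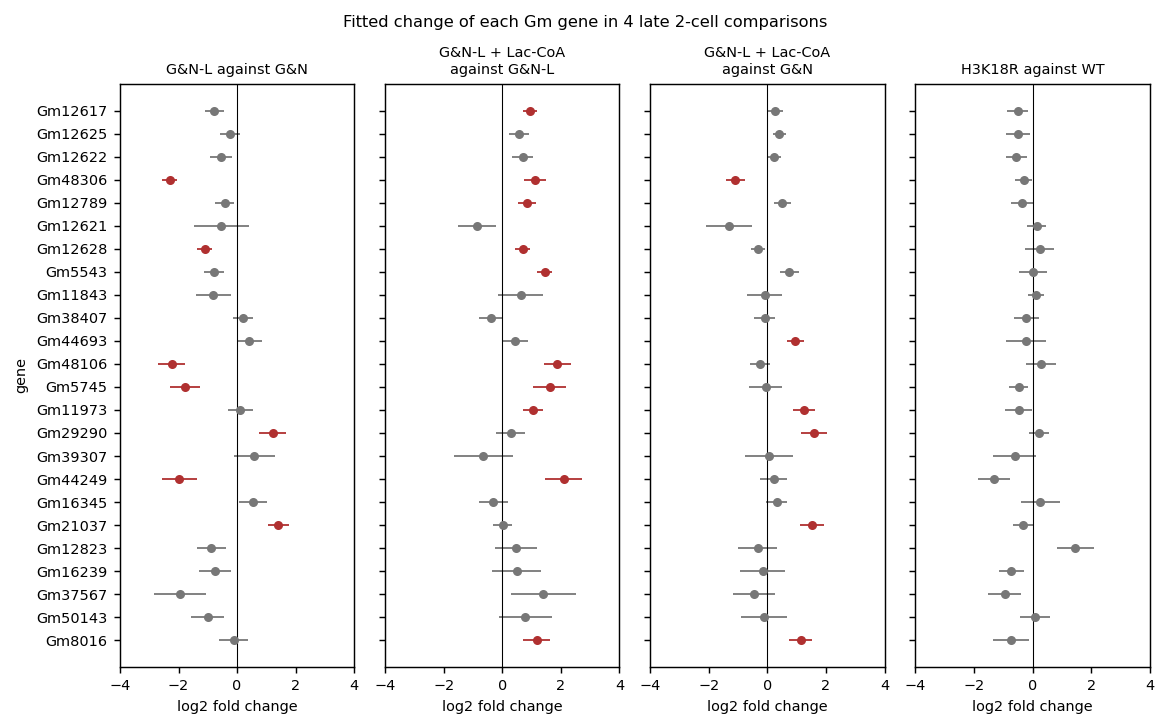
Fitted log2 fold change of each of the 24 genes (points, with bars of 1 SE) in 4 late 2-cell comparisons, with genes past the criterion in red. In G&N-L against G&N, 5 of 7 red points are left of 0 (over all genes 7.63% lower, 4.23% higher). The G&N libraries helped to choose the genes, so nothing is read from these points. In G&N-L + Lac-CoA against G&N-L, which shares the G&N-L libraries, 10 of 10 are right of 0 (over all genes 6.89% higher, 6.29% lower). There are none in H3K18R against WT (over all genes 2.67% lower, 3.77% higher).

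Of the 54 other genes, 24 were higher and 0 lower with Lac-CoA, with a median of 1.01. Among the 2-cell programme genes 12 of 34 were higher and 3 lower, with a median of 0.52. Over all Gm genes tested the median was -0.09, with 187 higher and 262 lower. Removal and Lac-CoA injection share the G&N-L libraries, so their changes are given side by side only.

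Lac-CoA injection was also set against G&N, whose libraries the rule used. The median change of the 24 was 0.13, with 11 below 0 (49.6% over all genes), and that of all genes 0.01. Under the criterion 1 gene was lower and 5 higher, with 4.10% and 4.41% over all genes. No member passed an adjusted p of 0.05 by edgeR, 6 had an unadjusted p under 0.05, and DESeq2 called 2 after adjustment (2.40% of all genes). Both Lac-CoA libraries were under both G&N ones for 2 genes (17.9% over all genes) and over them for 10 (21.5%). The lower gene was Gm48306, at 57.2 and 35.03 CPM with Lac-CoA against 101 and 91.8 in G&N, a change of -1.10 ± 0.33. It missed the criterion without Lac-CoA replicate 2 and without either G&N library. The higher genes were Gm29290 (1.60), Gm21037 (1.51), Gm11973 (1.25), Gm8016 (1.14) and Gm44693 (0.95). All 5 lost the criterion without Lac-CoA replicate 2, and 1 gene was higher without G&N replicate 1. As for lactate removal, the G&N libraries helped to choose the members, so nothing is read from these counts. Chosen on WT alone, 3 Gm genes were lower and 5 higher of 56.

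H3K18R was compared with the libraries labelled WT, in which H3c1 shows no injected H3.1 mRNA. The rule again used these WT libraries, so nothing is read from the counts. None of the 24 genes passed the criterion or an unadjusted p under 0.05 by edgeR, with 2.67% of all 17704 genes lower and 3.77% higher, and DESeq2 put 1 lower and 1 higher past the same criterion and 0 past adjustment. After adjustment edgeR called 0.00565% of all genes and DESeq2 0.667%. Both H3K18R libraries were under both WT ones for 8 members (18.9% over all genes) and over them for 2 (20.2%). The median was -0.31, with 15 below 0 (48.6% over all genes), and 0.03 over all genes. It was 0.02 without H3K18R replicate 2 and -0.75, with 6 genes lower, without replicate 1. The summed oocyte level was 8768 CPM in replicate 2 and 4061 in replicate 1, and its part was not tested. With Gm genes chosen on the early and G&N libraries alone, the median of 33 genes was -0.21 with 0 past the criterion.

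Several members differed widely between replicates. Gm39307, an lncRNA within Zfp809, stood at 8.39 and 34.7 CPM in G&N-L and 4.62 and 25.4 with Lac-CoA. Gm11843, inside an intron of Cibar1 on the same strand, stood at 23.8 and 7.96 CPM in G&N-L and 12.3 and 40.8 with Lac-CoA, while Cibar1 was already at 23.8 to 40.8 CPM early. Gm38407, at 53.7 and 67.5 CPM in G&N and 90.9 and 51.6 in G&N-L, and Gm44693, at 67.9 and 53.995 against 115 and 50.3, overlapped between these groups. Both were lower in WT (37.4 and 30.2, and 32.6 and 33.7 CPM) than in G&N.

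Over the 14 libraries, Gm38407 was the member most like Zscan4d, a marker of the 2-cell state, with Pearson r = 0.93 on log2 CPM, followed by Gm21037, Gm16345 and Gm12628 with 0.92 each. The early libraries, all near 0 by the rule, set these values, and over the 10 late libraries r was 0.52, 0.21, 0.36 and 0.002, and it was below 0 for 18 of the 24 members, down to -0.81 for Gm37567. At the edges of the rule, Gm16239 and Gm37567 were just inside with a lowest late level of 10.5 CPM each, and Gm26707 (9.94) and Gm50243 (9.34) just outside. Gm8016 (10 early counts) and Gm12628 (9) were just inside the early limit, and Gm5541 (11) and Gm47381 (12) just outside.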

How the data were processed

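RNA-seq counts per gene, as deposited, were made by the authors with Trim Galore, HISAT2 on mm39 and featureCounts per the labels and methods; versions, strand setting and treatment of multi-mapping reads are not given in the sources used here. Groups were taken from the sample titles, since the treatment labels of the early groups differ from them, and the count column named K18A was taken as H3K18R. The members and gene lists were chosen with earlier results of these data known, and the chromosome 11 array was singled out after its positions and values were seen. CPM used library totals. Fits used the 4 libraries of a comparison, with edgeR 4.0.16 (TMM, filterByExpr, quasi-likelihood test) over all genes, with Benjamini-Hochberg adjustment. The fit was tested on simulated data. DESeq2 1.42.0, other filters, scalings, member rules, a replicate block and leaving out each library were alternatives. Named genes were the 12 highest members, the 3 with the smallest p per comparison, those at the thresholds, in the array or most like Zscan4d; others past the criterion, the last array copies, Gm39307 and Gm12624 were named after their values were seen. Sequences came from GRCm39 with GENCODE M39, and likeness from blastn 2.17.0. Protein sequences were not used here, and the likeness of the array copies to genes elsewhere is not reported here. Same-numbered libraries did not deviate together (r -0.066 to 0.006), so numbers were not taken as pairs. Counting error only is covered by the limit of 3 counts.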

Additional observations from a re-analysis of the deposited data

How the results depend on the processing

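The rule gave 12 members at 20 CPM, 54 at 5 CPM, 14 at 3 early counts and 57 on WT alone. For lactate removal, members lower were 8 with no filter, 3 at 20 CPM (0 higher), 3 at 3 early counts and 8 on WT alone; leaving out 1 library gave medians of -1.015 to -0.357, 3 to 10 lower and 1 to 3 higher. For Lac-CoA against lactate-free, the median was 0.806 without TMM and 0.813 at 3 early counts, members higher were 6 in 1 fit of all 14 libraries, at 20 CPM and at 3 early counts, and 1 was lower on WT alone; leaving out 1 library gave medians of 0.482 to 1.154, 3 to 10 higher and 0 to 1 lower. For H3K18R, DESeq2, no filter and 10 counts in every library each gave 1 lower and 1 higher; leaving out 1 library gave medians of -0.746 to 0.021, the latter reversed without H3K18R replicate 2, with 0 to 6 lower and 0 to 1 higher. For Lac-CoA against G&N, 2 were lower by DESeq2, with no filter, at 10 counts in every library and on TMM CPM, 0 at 3 early counts and 3 on WT alone, and higher were 2 in the fit of all libraries, 1 at 20 CPM and 2 at 3 early counts; leaving out 1 library gave medians of 0.104 to 0.505, 0 to 2 lower and 0 to 6 higher. The causes were not tested. With a replicate block, though the numbers showed no pairing, removal gave 1 member higher, and no other count moved by over 1.5 times (Lac-CoA against lactate-free gave 7 higher). Counting the 5 array genes as 1 sum was added after seeing the data and moved no count by over 1.5 times. With 2 libraries per group an exact permutation test cannot go below 0.333.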
